A study of Mus musculus with 16 samples.

Results

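Slc9c1, Gm17783 and Gm609 on chromosome 16 and Nptxr and Npcd on chromosome 15 are 5 genes at 2 loci whose transcripts were near 0 in WT conventional dendritic cells (cDCs) and plainly detected when Trim33 had been deleted. They were selected on their measured TPM in these libraries, higher in cKO than in WT cDCs, so every cKO against WT value of theirs is given as a description and none is tested. All 5 members were listed in both expression tables, among 17128 genes for plasmacytoid DCs (pDCs) and 17721 genes for cDCs, and were taken as the rows of those 5 symbols. They lie beside one another at each locus, and Nptxr and Npcd share exons.

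The study profiled RNA of 3 DC subsets sorted from the spleen of C57BL/6 mice aged 6 to 8 weeks, in 16 libraries. WT mice were Trim33 fl/fl, with both Trim33 alleles flanked by loxP sites and no Cre. The cKO mice were Trim33 fl/fl Itgax-Cre, in which Cre recombinase is expressed from the promoter of Itgax, the gene of CD11c, and deletes Trim33 in CD11c-expressing cells. TRIM33 is a chromatin-associated ubiquitin ligase that acts in transcription. No treatment was given. The groups were WT and cKO pDCs (CD11c+ SiglecH+) with 3 libraries each, WT and cKO cDC1s (CD24+ CD172a-) with 2 each, and WT and cKO cDC2s (CD24- CD172a+) with 3 each. Each library was a biological repeat made from pooled mice, with more mice per pool for cKO than for WT.

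SLC9C1 is a sodium-proton exchanger known from the sperm flagellum, where it takes part in the control of pH and of cyclic AMP signalling and is needed for motility. NPTXR, the neuronal pentraxin receptor, is a membrane-anchored pentraxin of neurons that helps to cluster AMPA-type glutamate receptors at synapses together with the secreted pentraxins NPTX1 and NPTX2. Npcd (neuronal pentraxin with chromo domain) is a joined transcript that begins in Cbx6, a chromobox gene of the Polycomb complex PRC1, and continues into Nptxr. Gm17783 and Gm609 are predicted protein-coding genes.

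On chromosome 16 the annotation places Gm609 (gene ID 208166, chr16:45411767-45493004, minus strand), Gm17783 (100047671, chr16:45508644-45532050, minus strand) and Slc9c1 (208169, chr16:45535266-45607001, plus strand) in that order (RefSeq, GRCm38.p6). Gm17783 and Slc9c1 start back to back with 3215 bases between them, and 15639 bases separate Gm17783 from Gm609. On chromosome 15 Nptxr (73340, chr15:79786351-79804709) and Npcd (504193, chr15:79786351-79834333) are both on the minus strand and end at the same base. Npcd spans Nptxr and reaches to the start of Cbx6 (494448, chr15:79823898-79834333, minus strand).

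**Figure D1:**
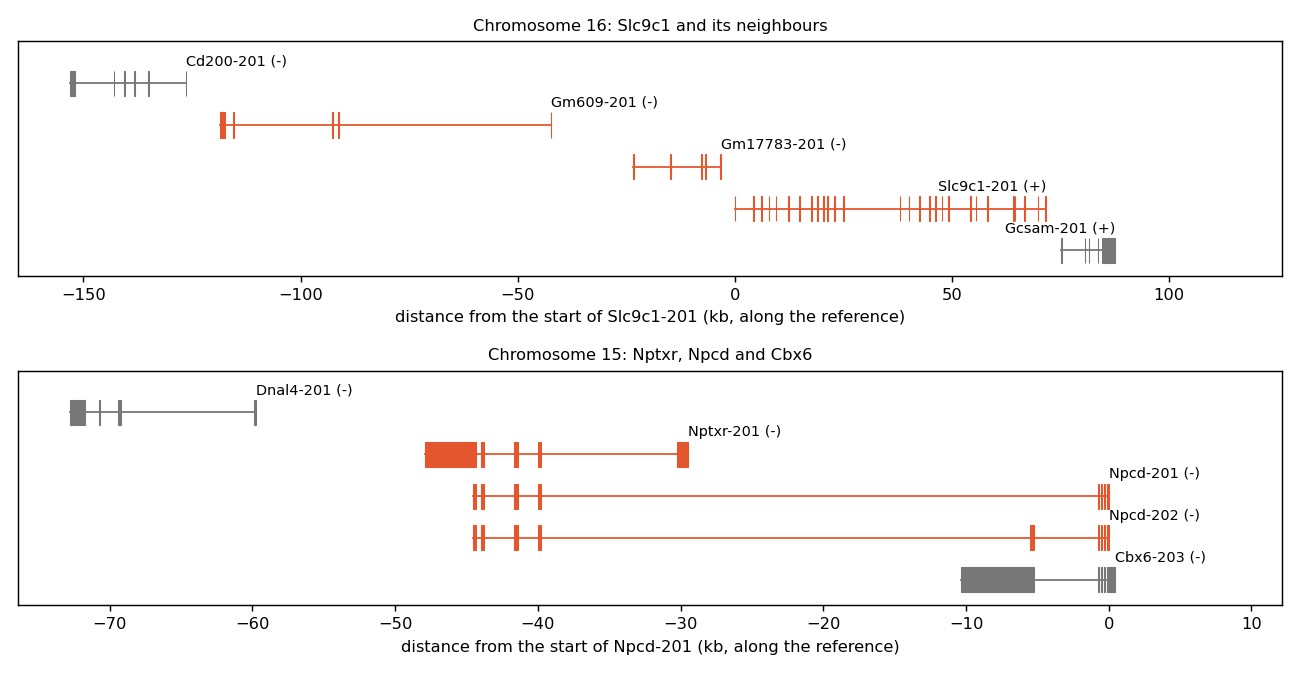
Transcript models of the 5 members (red) and of adjoining genes (grey) in GENCODE M21, drawn to scale, with exons as boxes, introns as lines and the strand in brackets. The x axes give the distance in kb from the start of Slc9c1 (upper panel) and of Npcd (lower panel). Both Npcd transcripts open with exons of Cbx6 and continue with exons of Nptxr, while Gm17783 and Slc9c1 do not overlap.

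The start regions of the back-to-back pair are shown because the paired starts define the chromosome 16 locus, together with that of Cbx6, at which Npcd also begins. Each is 250 bases before the annotated start and 50 after it, read 5′ to 3′ on the gene's own strand (RefSeq, GRCm38.p6), and 2 of the 5 members had such an entry. Capitals mark matches on either strand to the GC box GGGCGG, the CCAAT box, the E-box CACGTG, the ETS-type motif GAGGAA or the TATA box TATAAA, 5 motifs searched as written.
Slc9c1, chr16:45535016-45535315, plus strand: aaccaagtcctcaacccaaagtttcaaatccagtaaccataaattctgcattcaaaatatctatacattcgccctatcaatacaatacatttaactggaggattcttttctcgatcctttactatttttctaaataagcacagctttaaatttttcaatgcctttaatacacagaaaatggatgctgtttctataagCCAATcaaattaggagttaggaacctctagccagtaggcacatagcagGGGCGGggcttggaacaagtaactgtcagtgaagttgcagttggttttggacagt
Gm17783, chr16:45532001-45532300, minus strand: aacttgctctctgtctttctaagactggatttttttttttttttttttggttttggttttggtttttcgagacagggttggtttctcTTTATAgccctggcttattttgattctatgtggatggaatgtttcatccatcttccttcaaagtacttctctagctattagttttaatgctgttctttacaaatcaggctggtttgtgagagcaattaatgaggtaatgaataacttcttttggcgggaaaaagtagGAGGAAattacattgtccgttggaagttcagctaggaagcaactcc
Cbx6, chr15:79834284-79834583, minus strand: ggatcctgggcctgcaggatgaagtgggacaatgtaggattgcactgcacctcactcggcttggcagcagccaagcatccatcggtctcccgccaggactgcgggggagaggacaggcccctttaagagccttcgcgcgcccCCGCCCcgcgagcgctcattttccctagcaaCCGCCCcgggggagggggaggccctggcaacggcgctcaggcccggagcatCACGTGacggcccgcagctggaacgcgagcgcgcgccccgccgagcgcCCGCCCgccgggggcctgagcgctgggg
The Slc9c1 window held 1 GGGCGG and 1 CCAAT, the Gm17783 window 1 GAGGAA and 1 TATAAA, and the Cbx6 window 3 GGGCGG and 1 CACGTG. Among the 32851 promoter windows of this length, GGGCGG occurred in 35.7%, CCAAT in 37.4%, GAGGAA in 28.3%, TATAAA in 13.6% and CACGTG in 7.2%, and a match is a description of the letters only. The windows differed more in base composition. The Slc9c1 and Gm17783 windows each held 3 CG dinucleotides, where the median over all windows was 7, and were 37.3% and 36.3% G or C. The Cbx6 window held 31 CG dinucleotides and was 71.7% G or C, and 90.5% of all windows held as few CG or fewer.

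The junctions that tell the chromosome 15 transcripts apart are shown as 25 bases on each side, with bases of Nptxr exon 2 in capitals (GENCODE M21, GRCm38).
Npcd, exon 4 (chr15:79833512-79833536) to exon 5 (chr15:79794451-79794475): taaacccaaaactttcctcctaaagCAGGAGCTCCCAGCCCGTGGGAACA
Nptxr, exon 1 (chr15:79803975-79803999) to exon 2 (chr15:79794451-79794475): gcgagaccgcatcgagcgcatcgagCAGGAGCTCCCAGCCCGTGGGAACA
Cbx6, exon 4 (chr15:79833512-79833536) to exon 5 (chr15:79828954-79828978): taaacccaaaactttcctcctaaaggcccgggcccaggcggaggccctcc
The Npcd transcript shown, 1 of 2 annotated, has the left part of the Cbx6 junction and the right part of the Nptxr junction. Among the transcripts of the 3 genes no other holds its 50-base junction. The other Npcd transcript has 291 bases of Cbx6 exon 5 between these 2 parts. A read of 50 bases, the length sequenced here, could begin at 1113 positions of the Npcd transcript shown. Of these, 75.7% give a read also found in Nptxr, 20.1% one also found in Cbx6, and 4.1% one found in no other gene. In Nptxr, by contrast, 82.9% of positions give a read found in no other gene and 17.0% one shared with Npcd. Levels of Npcd therefore rest largely on how the estimation program divided shared reads. Those of Nptxr rest on it for a smaller part of the transcript.

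Slc9c1 shared no 50-base stretch with another gene. Gm17783 and Gm609 resemble each other: exons 2, 3 and 4 have 339, 300 and 112 bases in both, of which 87.0%, 94.0% and 96.4% are identical. The longest identical run of these exons, 73 bases in exon 3, is shown because reads inside it could come from either gene (Gm609 at chr16:45442646-45442718, Gm17783 at chr16:45527669-45527741, both minus strand).
Gm609 and Gm17783, shared run: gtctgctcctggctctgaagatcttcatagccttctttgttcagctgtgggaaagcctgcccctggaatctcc
Over the whole transcripts, 4.2% of 50-base windows of Gm17783 and 2.1% of those of Gm609 were shared between the 2 genes.

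Levels are in TPM, an abundance scaled for transcript length and to the same total in every library. Libraries were estimated to hold 18.4 to 20.2 M reads, at which 3 reads correspond to 0.06 to 0.07 TPM of Nptxr, 0.07 to 0.09 of Slc9c1, 0.13 to 0.17 of Gm609, 0.25 to 0.32 of Npcd and 0.27 to 0.34 of Gm17783. Values at or under these levels cover a handful of reads and their counting error is large. Trim33 itself was lower in every cKO library than in every WT library of its subset, with means of 7.79 ± 0.12 against 16.8 ± 1.92 TPM in cDC1s (SD, n = 2 each), 7.71 ± 0.507 against 18.7 ± 1.77 in cDC2s and 13.6 ± 2.53 against 22.3 ± 1.62 in pDCs (SD, n = 3 each). The log2 difference was -1.02 in cDC1s (limma adjusted p = 0.000349), -1.17 in cDC2s (adjusted p = 0.000126) and -0.68 in pDCs, where the adjusted p was 0.0301 without and 0.00361 with the replicate number as a block. The pDC and cDC1 libraries carried the markers of their label. The 6 pDC markers summed to 14600 to 15700 TPM in pDC libraries against 128 to 240 in cDC libraries. The 6 cDC1 markers summed to 924 to 1560 TPM in cDC1 libraries against 143 to 200 in cDC2 libraries. The 6 cDC2 markers summed to 1030 to 1370 TPM in cDC2 and 29.7 to 34.5 in cDC1 libraries, but to 1640 to 1830 in pDC libraries. Of these, only Cd4 (686 to 1120) and Clec10a (410 to 645) were higher in pDC than in cDC2 libraries. Between WT and cKO cDC1s the sum of pDC markers was 148 to 160 against 238 to 240 TPM. Bst2 made up most of it (113 to 129 against 199 to 200), and Ccr9 was lower (17.6 to 18.8 against 8.07 to 9.6). That of 5 neutrophil markers was 0.66 to 11.2 against 13.2 to 23.4, with Ly6g at 0 in both WT and Elane at 0 in both cKO libraries. That of cDC1 markers was 1450 to 1560 against 924 to 931, although Tlr3 was higher (177 to 206 against 217 to 232). That of 4 listed T cell markers, mostly Cd8b1, was 9.38 to 13.0 against 5.37 to 7.22. That of 5 B cell markers was 23.8 to 32.1 against 16.6 to 17.8. Within it Ms4a1 was lower (17.7 to 21.2 against 6.17 to 6.45) and Cd79b higher (1.66 to 4.58 against 6.41 to 8.04). In cDC2s the sum of cDC1 markers, mostly Batf3, was 177 to 200 in WT and 143 to 164 in cKO. That of 6 cDC2 markers was 1240 to 1370 in WT and 1030 to 1190 in cKO. Among these, Cd4, Clec4a4 and Esam were lower in cKO libraries, Itgam and Clec10a were higher, and Sirpa overlapped. Levels of the members in pDC libraries were at most 0.75 TPM. The part of these marker shifts in the values below was not tested. Sums of NK cell and erythroid markers overlapped between genotypes in each cDC subset. In bulk RNA, fewer cells making a transcript and less transcript per cell cannot be told apart.

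Slc9c1 went from the detection limit to an intermediate level in both cDC subsets. In cDC1s it measured 0.03 and 0.00 TPM in WT libraries and 30.46 and 29.01 TPM in cKO libraries. In cDC2s the WT libraries gave 0.17, 0.66 and 0.00 TPM and the cKO libraries 25.19, 24.09 and 21.86 TPM. The groups were far apart, and in cKO cDC1s the mean of 29.7 ± 1.03 TPM (SD, n = 2) was higher than that of 72.6% of listed genes. Mean levels in cDC2s were 0.277 ± 0.343 in WT and 23.7 ± 1.7 in cKO (SD, n = 3 each), a ratio of 85.7, which became 279 without WT cDC2 replicate 2, the library with 0.66 TPM (about 24.2 reads). That library also had the highest summed erythroid marker level of the cDC libraries, 7230 TPM against 884 and 1380 in the other WT cDC2 libraries, and whether this bears on its Slc9c1 reads was not tested. On the log2(TPM + 1) scale the cKO minus WT difference was 4.92 ± 0.21 in cDC1s and 4.31 ± 0.17 in cDC2s (limma SE), ranked 12 and 7 from the top of 11411 genes. In pDCs 1 cKO library gave 0.03 TPM, about 1.0 read, and the other 5 libraries gave none.

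Gm17783, the minus-strand gene that starts on the other side of the gap, followed the same order at a lower level. It was listed at 0 in both WT cDC1 libraries and at 12.57 and 13.48 TPM in the cKO cDC1 libraries. WT cDC2 libraries gave 0.08, 0.08 and 0.00 TPM, under 1 read each by estimate, and cKO cDC2 libraries 11.28, 10.11 and 11.52 TPM. Against 3 reads per WT library, the cKO cDC1 mean of 13.0 ± 0.643 TPM (SD, n = 2) was at least 45.8-fold higher. The log2 differences were 3.81 ± 0.14 and 3.51 ± 0.11 (SE) in cDC1s and cDC2s. In pDCs it reached 0.09 TPM in 2 cKO libraries and was 0 in the other 4.

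Gm609, the farther of the predicted genes, was the lowest of the 5 members. Both WT cDC1 libraries were at 0 and the cKO cDC1 libraries at 4.03 and 4.24 TPM, at least 29.2-fold above the level of 3 reads. WT cDC2 libraries gave 0.00, 0.08 and 0.00 TPM and cKO cDC2 libraries 3.55, 1.63 and 3.37 TPM. The cKO cDC2 libraries spread more for this gene than for the other members of its locus, with replicate 2 at less than each of the others. Log2 differences were 2.36 ± 0.25 in cDC1s and 1.87 ± 0.2 in cDC2s (SE). Its single value above 0 in pDCs was 0.06 TPM, in a WT library.

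Nptxr, the pentraxin receptor gene, was above the 3-read level in every WT cDC library, so its fold could be computed. WT cDC1 libraries measured 1.63 and 0.71 TPM and cKO cDC1 libraries 37.4 and 44.35 TPM. WT cDC2 libraries measured 0.89, 0.77 and 0.69 TPM and cKO cDC2 libraries 19.86, 16.37 and 17.06 TPM. The cKO cDC1 mean, 40.9 ± 4.91 TPM (SD, n = 2), was the highest group mean of any member. Means were 34.9 times higher in cKO than in WT cDC1s, or 57.6 times without WT cDC1 replicate 1, and 22.7 times higher in cKO than in WT cDC2s. The log2 differences were 4.3 ± 0.2 and 3.39 ± 0.16 (SE). In pDCs the gene stayed low in both genotypes, with 0.00, 0.20 and 0.10 TPM in WT and 0.21, 0.00 and 0.23 TPM in cKO libraries, which overlapped.

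Npcd, the Cbx6-Nptxr joined transcript, was higher in cKO cDCs by a smaller factor and with a wider spread. WT cDC1 libraries measured 0.37 and 1.19 TPM and cKO cDC1 libraries 11.81 and 6.51 TPM. WT cDC2 libraries measured 0.82, 0.57 and 0.34 TPM and cKO cDC2 libraries 6.27, 7.58 and 4.36 TPM. Genotypes did not overlap in either subset. Means were 11.7 times higher in cKO than in WT cDC1s (24.8 without WT replicate 2, 7.7 without WT replicate 1) and 10.5 times higher in cKO than in WT cDC2s. The log2 differences were 2.5 ± 0.32 and 2.15 ± 0.26 (SE). Npcd was the 1 member whose pDC libraries separated by genotype, at 0.19, 0.05 and 0.01 TPM in WT and 0.71, 0.55 and 0.75 TPM in cKO libraries. These cKO values correspond to about 6.9, 5.3 and 7.4 reads, and most of the transcript cannot be told from Nptxr or Cbx6 by such reads. Without cKO pDC replicate 1 or replicate 2, 2 members were separated in pDCs in place of 1.

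Every cKO library lay above every WT library for 5 of 5 members in cDC1s and in cDC2s, and for 1 of 5 in pDCs. The members were chosen for this, so nothing is read from these counts. Among all listed genes the share was 37.8% in cDC1s, where 2 libraries met 2, 11.5% in cDC2s and 8.93% in pDCs. No member passed the filter of a mean of 1 TPM in pDCs and all 5 passed it in cDCs, in each case through the cKO libraries. Because WT values were so low, the pseudocount set the size of the log2 differences: with 0.1 in place of 1 TPM the difference of Slc9c1 in cDC1s was 8.03 in place of 4.92 and that of Gm609 5.4 in place of 2.36.

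**Figure D2:**
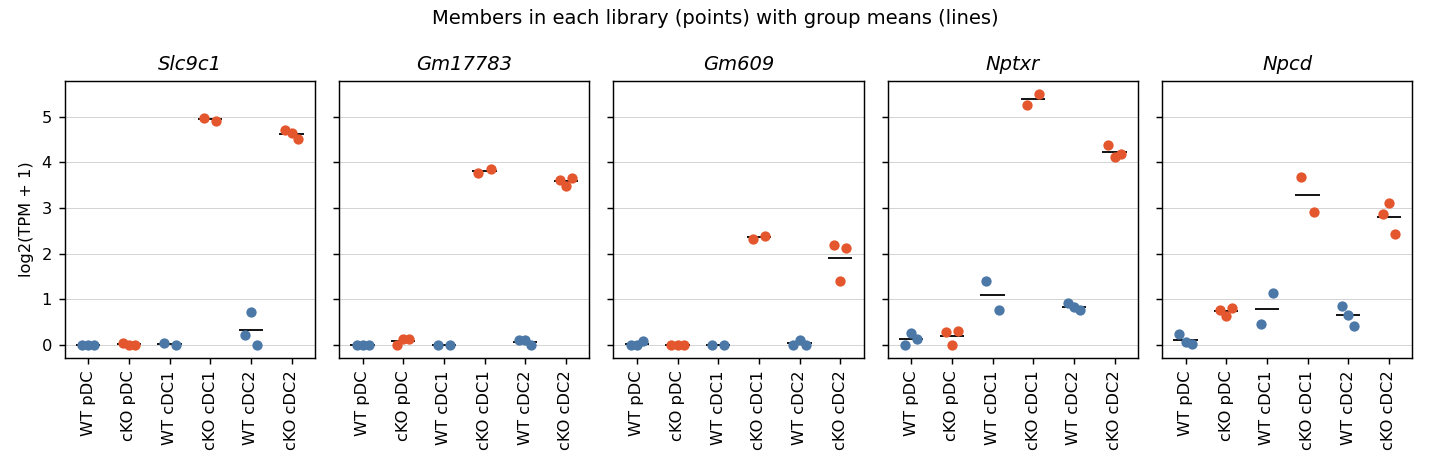
Level of the 5 members in each of the 16 libraries on the log2(TPM + 1) scale (points; blue WT, red cKO), with the mean of each group as a line. The cKO cDC1 and cKO cDC2 points of every member lie above all WT points, and pDC points lie near 0 in both genotypes. pDCs and cDCs come from tables that hold different genes, so levels are set side by side across them and not tested.

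In the order of group means, cKO cDC1s came first and cKO cDC2s second for all 5 members. For 4 members, all but Npcd, both cKO cDC1 libraries were higher than all 3 cKO cDC2 libraries, which was so for 28.6% of all listed genes. The ratio of the means was 2.3 for Nptxr, 1.51 for Npcd, 1.45 for Gm609, 1.25 for Slc9c1 and 1.19 for Gm17783. The same 4 members were separated in FPKM, after median-of-ratios scaling and after quantile normalization. Below the cKO cDC groups, Gm17783 and Gm609 were under 3 reads in every WT cDC and pDC library, and the order of these groups was not resolved. Slc9c1 came to about 6.2, 24.2 and 0 reads in WT cDC2 libraries, against 1.2 and 0 in WT cDC1 and 0 in every WT pDC library, and the WT cDC2 libraries overlapped those of the other groups. For Nptxr and Npcd, WT cDC libraries were above the WT pDC libraries, while the WT cDC1 and WT cDC2 libraries overlapped for both genes.

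WT cDC1s and WT cDC2s were set side by side for the members as a description. The members were chosen for being higher in cKO than in WT cDCs, a choice that used these WT libraries, so no test is drawn on here. Slc9c1, Gm17783 and Gm609 were near 0 in WT cDCs, which leaves little room for a difference between the WT subsets. Nptxr measured 0.69 to 0.89 TPM in WT cDC2s and 0.71 to 1.63 in WT cDC1s, and Npcd 0.34 to 0.82 and 0.37 to 1.19. For Slc9c1 the WT cDC1 minus WT cDC2 difference was -0.3 ± 0.19 on the log2(TPM + 1) scale (limma SE) and for Nptxr 0.25 ± 0.18. Gm17783 gave -0.07, Gm609 -0.04 and Npcd 0.15. In the same fit 0 of 5 members were called between the WT subsets (an adjusted p no higher than 0.01 with a log2 difference of 0.5 or more in size) and 0 of 5 had an unadjusted p under 0.05, where 31.7% of the 11411 genes tested were called, and nothing is read from that count.

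Ratios between genes within a library do not depend on how libraries are scaled, and they differed in steadiness between gene pairs. In the 5 cKO cDC libraries the TPM of Gm17783 was 0.413 and 0.465 of that of Slc9c1 in cDC1s and 0.448, 0.42 and 0.527 in cDC2s, a range of 1.28 times. Gm609 was 0.161 to 0.321 of Gm17783, with cKO cDC2 replicate 2 lowest, a range of 1.99 times. Its ratio to Slc9c1 had a range of 2.27 times, and that of Npcd to Cbx6 1.96 times. Npcd varied more against Nptxr, from 0.147 and 0.316 in cDC1s to 0.256 to 0.463 in cDC2s, a range of 3.15 times. Nptxr was 1.23 and 1.53 times Slc9c1 in cKO cDC1s and 0.68 to 0.788 times Slc9c1 in cKO cDC2s, so the order of the leading genes of the loci was opposite in the 2 subsets.

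**Figure D3:**
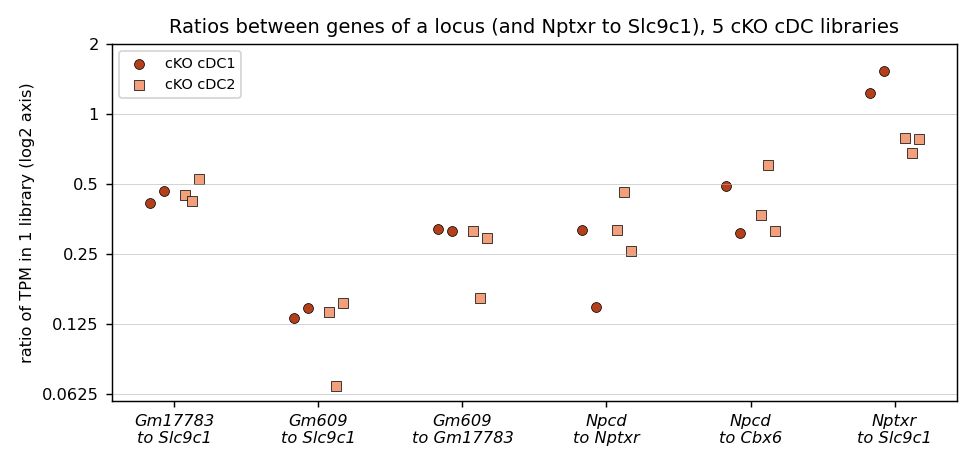
Ratio of the TPM of 2 genes within each of the 5 cKO cDC libraries (circles cDC1, squares cDC2), on a log2 axis. Gm17783 to Slc9c1 stayed within 0.413 to 0.527, while Npcd to Nptxr ran from 0.147 to 0.463, and Nptxr to Slc9c1 was above 1 in cDC1s and below 1 in cDC2s.

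Nptxr and Npcd varied in opposite directions between the 2 cDC1 libraries of each genotype. The WT library with the higher Nptxr (1.63 TPM) had the lower Npcd (0.37 TPM), and the cKO library with the higher Nptxr (44.35 TPM) had the lower Npcd (6.51 TPM). Summed as 1 feature, Nptxr and Npcd came to 1.95 ± 0.0707 TPM in WT and 50.0 ± 1.17 TPM in cKO cDC1s (SD, n = 2 each), with smaller SDs than Nptxr alone (0.651 and 4.91) or Npcd alone (0.58 and 3.75). In cDC2s the sum was 1.36 ± 0.34 in WT and 23.8 ± 2.36 in cKO (SD, n = 3 each), and there its SD was not smaller than that of each gene. The log2 difference of the sum was 4.11 in cDC1s and 3.4 in cDC2s, and that of Slc9c1 and Gm17783 together 5.43 and 4.78. Transcripts of Nptxr and Npcd have 5006 and 1162 bases, so a steady sum of TPM is not a steady sum of reads. By estimate, WT cDC1 replicates 1 and 2 held 82.7 and 35.8 reads of Nptxr and 4.2 and 13.5 of Npcd. The cKO cDC1 replicates 1 and 2 held 1853.4 and 2262.1 reads of Nptxr and 131.4 and 74.6 of Npcd.

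Genes around the loci were tested in the same fits, with the members, which had been picked for rising, left out. Within 500 kb of the members 75 other genes were annotated, of which 42 were listed and 29 tested in cDCs, and 43 listed and 26 tested in pDCs. In cDC1s 6 of 29 neighbours were called (5 higher, 1 lower in cKO), 20.7% against 22.4% of all genes tested. In cDC2s 2 of 29 were called (1 higher, 1 lower), 6.9% against 7.15%. In pDCs 0 of 26 were called with limma, against 1.05%, and 5 had an unadjusted p under 0.05. With the replicate number as a block, 1 neighbour was called in pDCs, where 260 of all 11299 genes tested were called higher and 75 lower. It was Cd96, a receptor of T and NK cells, with a log2 difference of -0.73 (adjusted p = 0.00272, and 0.0177 without the block). The sum of the 4 listed T cell markers in pDC libraries was 497 to 794 TPM in WT and 300.0 to 366 TPM in cKO. Nearly all of it was Cd8b1, at 496 to 793 TPM in WT and 298 to 365 in cKO. Cd3d, Cd3e and Cd3g were each at most 0.38 TPM in WT and at most 0.94 in cKO pDC libraries. The part of these levels in the Cd96 difference was not tested. The median log2 difference of the tested neighbours was 0.05 in cDC1s and -0.11 in cDC2s, where all genes had 0.17 and -0.03. Neighbours were thus called at shares near those of all genes, and their called differences reached at most 1.43 in cDC1s and 1.9 in cDC2s.

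Cbx6, the Polycomb gene from whose start Npcd also runs, was the neighbour with the largest difference in cDC1s. It measured 8.95 and 6.72 TPM in WT and 23.99 and 21.18 TPM in cKO cDC1 libraries, a log2 difference of 1.43 ± 0.19 (SE, adjusted p = 0.000419). In cDC2s it measured 9.0, 9.49 and 12.19 TPM in WT and 17.08, 12.58 and 13.96 in cKO libraries, without overlap but not called (0.47 ± 0.15, adjusted p = 0.0573). In pDCs, where Npcd was at most 0.75 TPM, Cbx6 was higher than in cDCs, at 34.86 to 46.67 TPM in WT and 31.37 to 42.02 in cKO libraries, which overlapped. Of the 50-base windows of Cbx6, 8.9% are shared with either Npcd transcript and 91.1% are found in no other gene.

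Gcsam, which encodes a signalling adaptor of germinal centre B cells, begins 3438 bases past the end of Slc9c1 on the same strand and was the only neighbour called higher in cDC2s. It measured 4.11, 0.96 and 0.45 TPM in WT and 8.56, 6.51 and 9.53 TPM in cKO cDC2 libraries (1.9 ± 0.37, adjusted p = 0.00681). In cDC1s it was already abundant in WT, at 173.1 and 151.06 TPM, and measured 280.93 and 288.57 TPM in cKO libraries, which did not overlap but were not called (0.81 ± 0.45, adjusted p = 0.179, and 0.00774 without WT cDC2 replicate 1). In pDCs it stayed at 0.11 to 0.61 TPM in both genotypes. The call in cDC2s was lost at a pseudocount of 0.1 TPM (adjusted p = 0.0122), without the filter (0.0199) and without any 1 of the cDC libraries except WT cDC2 replicate 1 (adjusted p from 0.0105 to 0.0328).

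On the other side of the chromosome 16 cluster lies Cd200, a minus-strand inhibitory ligand gene that starts 2706 bases past the end of Gm609. It was not called, at -0.77 ± 0.29 in cDC1s (adjusted p = 0.0584, and 0.0032 without WT cDC2 replicate 2) and -0.47 ± 0.24 in cDC2s (adjusted p = 0.19). On chromosome 15 the nearest tested gene past Nptxr, Dnal4, a dynein light chain gene, was higher in cKO cDC1s (23.4 ± 1.78 against 13.6 ± 0.785 TPM, SD, n = 2 each; 0.74 ± 0.11, adjusted p = 0.000815) and not called in cDC2s (0.14 ± 0.09, adjusted p = 0.306). Apobec3, the restriction factor gene beyond Cbx6, was not called in either subset (-0.09 and -0.19). The other called neighbours in cDC1s were Dmc1, a meiotic recombinase gene (1.02 ± 0.23, adjusted p = 0.00573), Cby1, whose product binds beta-catenin (0.67 ± 0.12, adjusted p = 0.0018), Rps19bp1 (0.65 ± 0.11, adjusted p = 0.00173) and Cbx7, a further PRC1 chromobox gene (-0.86 ± 0.19, adjusted p = 0.00508). Cbx7 was lower in cDC2s too (-0.72 ± 0.15, adjusted p = 0.00965, and from 0.0126 to 0.0384 without any 1 of the 6 cDC2 libraries or 1 of the cKO cDC1 libraries). The effects in cDC1s and cDC2s were compared directly, and with limma 0 of 29 neighbours differed between the subsets, against 2.56% of all genes, with 6 at an unadjusted p under 0.05.

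The cDC1 calls of small size depended on the scaling. All genes tested had a median log2 difference of 0.17 in cDC1s as deposited and 0.02 after median-of-ratios scaling, under which 3 of 29 neighbours were called. Cby1, Dmc1 and Rps19bp1 then lost their call, with log2 differences of 0.5, 0.95 and 0.48. With 2 libraries per group, leaving out 1 of them also ended calls. Without cKO cDC1 replicate 2 only 1 neighbour was called in cDC1s, and without WT cDC1 replicate 1 or cKO cDC1 replicate 1 there were 3. Cbx6 kept its call under every alternative run. Dnal4 lost it without cKO cDC1 replicate 2 (adjusted p = 0.0118), and Dmc1 without any 1 of the 4 cDC1 libraries (0.0172 to 0.0498) or without cKO cDC2 replicate 3 (0.0104), and with the replicate number as a block (0.0153). Cby1 lost its call without WT cDC1 replicate 1 (0.0159) or cKO cDC1 replicate 2 (0.0224), and Rps19bp1 without WT cDC1 replicate 2 (0.0134) or either cKO cDC1 library (0.0199 and 0.0149). Cbx7 lost its call in cDC1s without WT cDC1 replicate 1 (-0.58, adjusted p = 0.0395) and without either cKO cDC1 library (0.0412 and 0.0268).

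**Figure D4:**
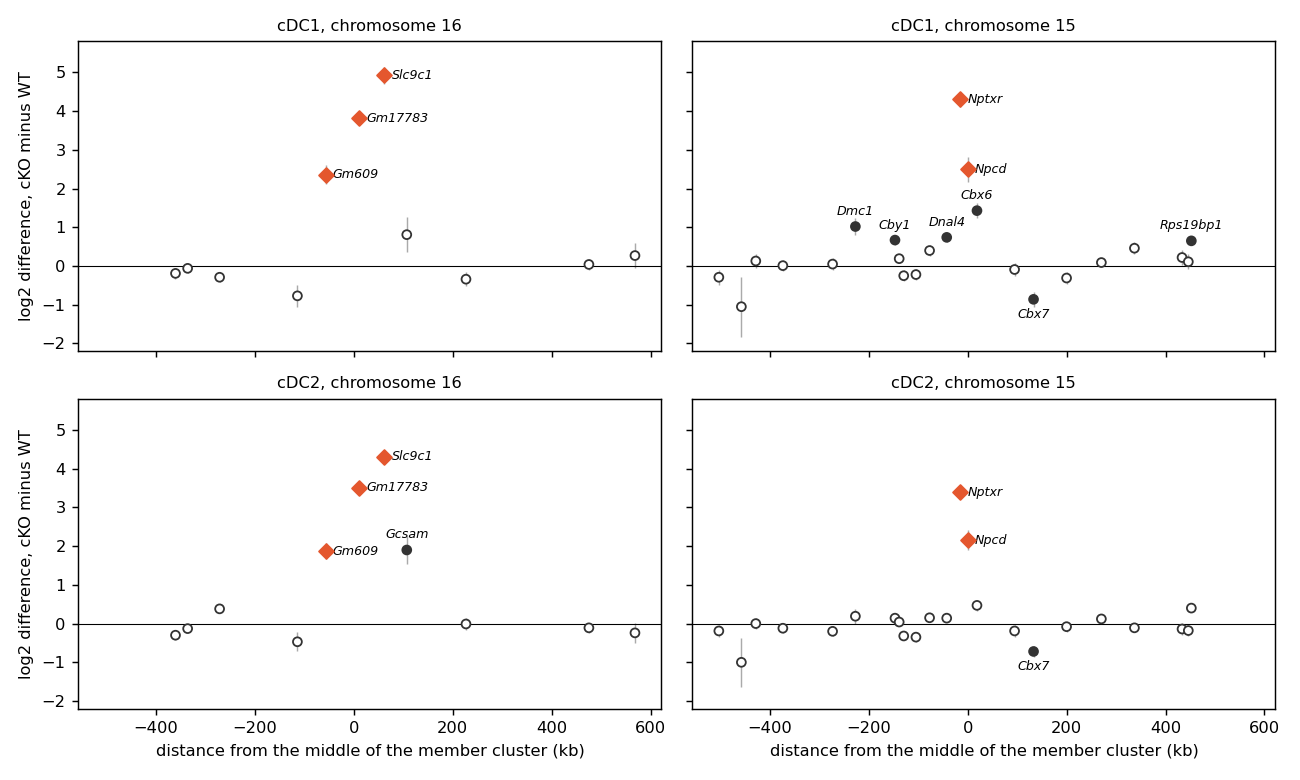
Log2 difference, cKO minus WT, of the members (red diamonds) and of the tested neighbours within 500 kb (circles; filled where called) by distance in kb from the middle of the member cluster to the middle of the gene, with the limma SE as bars. In cDC1s (upper) and cDC2s (lower) the members stand between 1.87 and 4.92, and the called neighbours between -0.86 and 1.9. The members were picked for rising, so the gap between these ranges follows in part from that choice and nothing is read from it.

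Genes related to the members by family or partnership were examined from lists that had been drawn up with earlier results known. Of 39 genes, 33 were listed and 18 tested in cDCs, and 32 listed and 17 tested in pDCs. In cDC1s 8 of 18 were called (5 higher, 3 lower), 44.4% against 22.4% of all genes. In cDC2s 2 of 18 were called, both lower, 11.1% against 7.15%. In pDCs limma called 0 of 17, against 1.05%, with 6 at an unadjusted p under 0.05. The median log2 difference of these genes was 0.08 in cDC1s, -0.03 in cDC2s and -0.12 in pDCs, against 0.17, -0.03 and -0.05 over all genes.

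Of 11 listed exchanger genes 7 were tested in cDCs, none was called higher, and Slc9a9, an exchanger of endosomes, was called lower in cDC1s (83.1 TPM in WT and 46.2 in cKO on average; -0.83 ± 0.1, adjusted p = 0.000278). In cDC2s its difference of -0.45 did not reach the size threshold (adjusted p = 0.00529). Among 10 genes of sperm ion transport and cyclic AMP signalling, 6 were listed in the cDC table and 2 tested. Hvcn1, a voltage-gated proton channel also known from immune cells, was lower in cKO cDC1s (-0.74 ± 0.16, adjusted p = 0.00477) and cDC2s (-0.68 ± 0.13, adjusted p = 0.00643), and Adcy10, the soluble adenylyl cyclase that partners SLC9C1 in sperm, had group means of at most 0.06 TPM in cDCs.

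Partners of NPTXR were low in cDCs. None of the 6 pentraxin genes was tested, and the highest group mean among them was 0.9 TPM, for Nptx2 in cKO cDC1s, where it was 0.705 in WT. Of the AMPA receptor subunits only Gria3 passed the filter, and it was not called in any subset. It had means of 0.605 and 1.83 TPM in WT and cKO cDC1s (0.82 ± 0.25, limma adjusted p = 0.0272). In cDC2s the means were 3.08 and 3.41 TPM (0.16 ± 0.21, adjusted p = 0.621). In pDCs Gria3 was more abundant, at 51.2 in WT and 64.3 in cKO (0.32 ± 0.08, adjusted p = 0.0793).

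Of the 8 chromobox genes, all tested, 5 were called higher in cKO cDC1s, where 1806 of all 11411 genes tested were called higher. This list too had been drawn up with results known, so the count is a description. The 5 were Cbx6, Cbx2, also of PRC1 (1.11 ± 0.17, adjusted p = 0.000946), and the genes of the 3 heterochromatin proteins HP1, Cbx5 (1.4 ± 0.2, adjusted p = 0.000553), Cbx3 (0.83 ± 0.16, adjusted p = 0.0033) and Cbx1 (0.66 ± 0.12, adjusted p = 0.00227). Cbx7 was lower. In cDC2s 0 of these 5 were called, with log2 differences from 0.0 for Cbx1 to 0.47 for Cbx6. Cbx3 and Cbx1 lost their call in cDC1s after median-of-ratios scaling, at 0.65 (adjusted p = 0.0246) and 0.49, and after leaving out cKO cDC1 replicate 1, at 0.76 (adjusted p = 0.0349) and 0.61 (adjusted p = 0.0277). Cbx1 also lost it without any of the other 3 cDC1 libraries (adjusted p from 0.0103 to 0.0181), and Cbx3 without WT cDC1 replicate 1 (0.0315) or cKO cDC1 replicate 2 (0.0166). Without cKO cDC1 replicate 1, 3 related genes were called, and without WT cDC1 replicate 1 there were 4. Cbx5 and Slc9a9 kept their call under every alternative run, and Cbx2 lost it without cKO cDC1 replicate 1 (1.09, adjusted p = 0.0124). Hvcn1 lost its call in cDC1s without WT cDC1 replicate 1 (-0.54, adjusted p = 0.0423) or cKO cDC1 replicate 1 (-0.58, adjusted p = 0.0532) and with the replicate number as a block (adjusted p = 0.0118). It lost its call in cDC2s with that block (adjusted p = 0.0168) and without any 1 of 5 cDC2 libraries, all but cKO replicate 2 (adjusted p from 0.0137 to 0.0331). The difference between the subsets was called for 0 of 18 related genes, with 7 at an unadjusted p under 0.05.

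**Figure D5:**
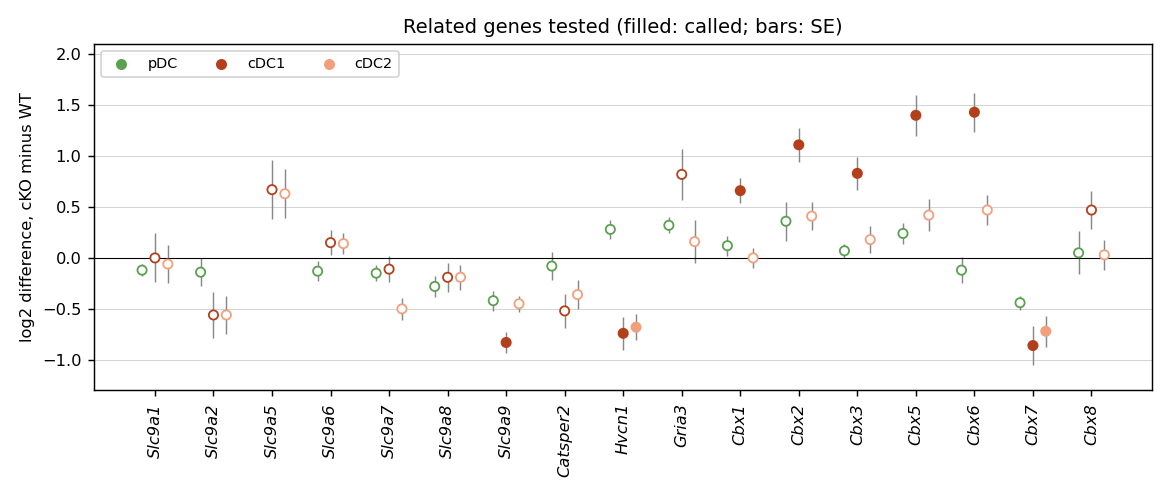
Log2 difference, cKO minus WT, of 17 related genes that were tested, in pDCs (green), cDC1s (dark red) and cDC2s (light red), with the limma SE as bars and filled points where a gene was called. In cDC1s 5 chromobox genes from 0.66 to 1.43 were called higher, and Slc9a9, Hvcn1 and Cbx7 lower.

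Across the 10 cDC libraries, the genes whose log2(TPM + 1) values were most like those of Slc9c1 were Selenbp2 (Pearson r = 0.998), Tuft1 (0.995), Cgn (0.99), Rnaseh2b (0.977) and Prim1 (0.975). Those most like Nptxr were Tuft1 (0.99), Hsd17b6 (0.982), Ckap4 (0.98), Mcm2 (0.979) and Exo1 (0.978). The 10 libraries fall into a WT and a cKO set, and genes that differ between these sets reach a high r by that alone. Selenbp2, Tuft1 and Cgn lie on chromosome 3, and none of the 9 genes is on chromosome 15 or 16. Like Slc9c1, Selenbp2 and Cgn were near 0 in WT cDCs, with group means of 0.195 and 0.683 TPM and of 0.02 and 0.0867 TPM in WT cDC1s and cDC2s. They reached 179 TPM in both cKO cDC1s and cKO cDC2s for Selenbp2 and 5.2 and 6.04 TPM for Cgn. Hsd17b6 had, like Nptxr, a higher mean in cKO cDC1s (759 TPM) than in cKO cDC2s (116 TPM). Mcm2 of the replicative helicase, Prim1 of the DNA primase, Exo1 and Rnaseh2b, which act in DNA replication or repair, were present in WT cDCs and differed less, by 1.05 to 1.81 in cDC1s and 0.93 to 1.27 in cDC2s on the log2 scale.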

How the data were processed

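RNA-seq of sorted splenic DCs was deposited by the authors as TPM values and as FPKM values per gene, in a table for pDCs and a table for cDCs. Single-end 50-base BGISEQ-500 reads were filtered with SOAPnuke and processed by the authors; the submitters' processing notes name HISAT2 2.0.4, Bowtie2 2.2.5, RSEM 1.2.12 and the mm10 build. Whether counting used strand is not given in the sources used here. Each TPM library sums to 1000000 over the listed genes within rounding, so a large change in a few genes shifts all others.

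Gene IDs were matched to RefSeq GRCm38.p6 (17079 of 17128 in pDCs, 17667 of 17721 in cDCs). The members and gene lists were chosen with earlier results of these data known. Genes with a mean of at least 1 TPM over the fitted libraries were tested with limma 3.58.1 in R 4.3.3 on log2(TPM + 1), with a mean-variance trend, two-sided, with Benjamini-Hochberg adjustment over all genes tested (11299 in pDCs; 11411 in cDCs, 10 libraries as 4 group means), and called where the adjusted p was no higher than 0.01 and the log2 difference was 0.5 or more in size. Such differences understate changes of low genes. The thresholds are the study's; its count model for these cells was not used, since these values are not counts. Named genes were the 5 members, Trim33, every neighbour or related gene called in any subset, the nearest tested neighbours and, for Slc9c1 and Nptxr, the 5 tested genes with the highest r; Cd96, Adcy10, Nptx2 and Gria3 were added after their values were seen. Of the related genes tested, 1 is counted but not reported here.

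Depth was estimated from the steps of low FPKM values in 28 to 41 single-exon genes per library, of which 76.3% to 94.1% lay within 0.2 reads of a whole number; reads have no molecular identifiers, so these limits cover counting error only. Same-numbered WT and cKO pDC libraries deviated together (r = 0.31, 0.392 and 0.206). The main pDC fit had no block, and a fit with the replicate number as a block is given as an alternative. Sequences, exons and motifs were read from GENCODE M21 and RefSeq with Python 3.11.15, and the fit and the depth estimate were tested on simulated data. Alternatives were other pseudocounts, filters, scalings, windows, FPKM, a replicate block and leaving out each library.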

Additional observations from a re-analysis of the deposited data

How the results depend on the processing

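The members were chosen for being higher in cKO than in WT cDCs of these libraries, so nothing is read from their keeping this order. Over the alternatives run for them, their log2 differences in cDCs ranged from 1.26 to 8.03. In FPKM, after either scaling and with single libraries left out, 5 of 5 were separated in cDC1s and in cDC2s. In pDCs 1 to 2 of 5 were separated when single libraries were left out. With the replicate block, 5 neighbours were called in cDC1s (Dmc1 lost its call), 1 in cDC2s (Cbx7 lost it) and 1 in pDCs, and 7 related genes in cDC1s (Hvcn1 lost its call), 0 in cDC2s and 0 in pDCs; same-numbered deviations correlated at -0.249, 0.253 and -0.165 in cDC2s and -0.233 in cDC1s. With crossed numbers in cDC1s, chosen after seeing the data, 6 neighbours and 8 related genes were called. In cDC1s, neighbours called were 3 after median-of-ratios scaling and 11 of 50 in a 1000 kb window. In cDC2s they were 0 at a pseudocount of 0.1 TPM, 0 with no filter, 1 with no eBayes trend and 6 of 50 in a 1000 kb window; related genes were 1 at a pseudocount of 0.1 TPM, 0 with no filter, 1 after median-of-ratios scaling, 4 after quantile normalization and 1 with no eBayes trend. Leaving out 1 library gave 1 to 7 neighbours in cDC1s, 0 to 1 in cDC2s and 0 to 1 in pDCs, and 3 to 9 related genes in cDC1s, 0 to 2 in cDC2s and 0 in pDCs. A lone remaining library was assumed to vary like the other groups. Signs turned, without a call, for Gm609 between WT subsets (0.01 with the replicate block), and, with a WT cDC1 library left out, for Nptxr (-0.06 to 0.56) and Npcd (-0.19 to 0.49) between WT subsets and Apobec3 in cDC1s (-0.24 to 0.05). The causes were not tested. Each cDC1 group had 2 libraries, and WT libraries held under 3 estimated reads of Gm17783 and Gm609, which limits the precision of their values.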
